A study of Mus musculus with 12 samples.

Results

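The clustered protocadherins are 58 of the 38986 genes listed in each library, chosen as every symbol that begins with Pcdha, Pcdhb or Pcdhg followed by an isoform code. They divide into the alpha cluster with 14 genes (12 alternate isoforms and the C-type isoforms Pcdhac1 and Pcdhac2), the beta cluster with 22 genes and the gamma cluster with 22 genes (12 of the A type, 7 of the B type and the C-type isoforms Pcdhgc3, Pcdhgc4 and Pcdhgc5). RNA was sequenced from teratomas, the mixed tumours that mouse embryonic stem (ES) cells form in an immunodeficient host. R1 mouse ES cells carried a pEZ-Lv235 lentiviral vector with the CAG promoter, either empty (ET, the control) or with Dnmt3L as the wild type (WT) or as the acetylation-deficient mutants K238R and K412R, and were selected for stable carriage of the vector. For each group, 5000000 cells were placed under the skin of male NOD-Prkdc EM1 mice aged 8 weeks, 3 teratomas were collected on day 21, and each gave 1 library. All 4 groups therefore share the endogenous Dnmt3l gene, the vector and the host. Blood vessels and other host cells may contribute RNA to a library, and their share was not measured. No label ties a library to a particular mouse, so the p-values below measure the spread between these libraries. Nor does a label name independent cell lines of a construct, so a difference between groups cannot be told apart from a difference between lines.

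Protocadherins are cadherin-type adhesion molecules of the cell surface, and the clustered ones are best known from neurons. Each alternate isoform has a promoter and a large variable exon of its own, and a neuron switches on a few of these promoters in a largely random choice, so that neighbouring neurons carry different sets of isoforms and a neurite can tell its own branches from those of other cells. The choice runs through CTCF and cohesin, which loop a promoter to distant enhancers, and through promoter DNA methylation, which the de novo methyltransferase Dnmt3b lays down in the early embryo, and Smchd1 represses the clusters. The C-type isoforms are chosen less randomly, with Pcdhac2 serving the tiling of serotonergic axons and Pcdhgc4 the survival of neurons. Dnmt3L is the catalytically inactive partner of the de novo methyltransferases, so the comparisons ask whether the amount or the form of Dnmt3L in the injected cells went along with different protocadherin transcript levels in the tumours. A bulk library adds up all cells, so the choice made in a single cell cannot be seen in it, and fewer cells of a type and less RNA per cell cannot be told apart.

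Dnmt3l itself was read as the check of the labels. Its counts were 2941, 3643 and 3581 in WT, 39, 11 and 137 in ET, 699, 677 and 463 in K412R and 35, 20 and 10 in the libraries labelled K238R. Those last libraries thus held about as little of it as ET, and they keep that name throughout. Library totals ran from 16957677 to 18546100 counts, of which the clustered protocadherins took 12824 to 18173. ET replicate 2 stood apart from the other ET libraries in many protocadherin values, although its 11 Dnmt3l counts were those of a control, and the results that change most with it are given with and without it. The library is singled out here by the values that are then tested. The p-values without it therefore follow that choice, rest on the remaining ET libraries and describe how far the results depend on it. All 12 libraries held a mixed tissue: summed over the marker lists, neuron markers lay between 4133 and 6992 CPM (counts scaled to an equal library total), striated muscle markers between 45.6 and 4939 CPM, epithelium markers between 394 and 1055 CPM and pluripotency markers between 30.0 and 172 CPM.

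Nearly the whole family was detected in every teratoma. Between 55 and 57 of the 58 genes reached 1 CPM in a library (median 57), and none of the 58 was removed as too low to test. Below 1 CPM were Pcdhb1 in all 12 libraries (3 to 17 counts), Pcdha8 in ET replicate 3, WT replicate 1 and K412R replicate 3 (5, 8 and 8 counts), and Pcdha7 in ET replicate 3 (0 counts) and in replicate 3 of the libraries labelled K238R (17 counts). The gamma cluster supplied 53.2% to 61.3% of the family's summed CPM in a library, the beta cluster 23.9% to 33.6% and the alpha cluster 10.1% to 20.2%.

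A C-type gene led the family. Pcdhgc3, the most broadly expressed gamma isoform, averaged 171 CPM over the 12 libraries and alone made up 18.7% of the family's mean CPM. Pcdhac2 followed with 35.9 CPM and Pcdhgc4 with 35.1 CPM, while the other C-type isoforms, Pcdhgc5 and Pcdhac1, averaged 9.74 and 5.41 CPM. Relative to transcript length, Pcdhgc3 reached 36.4 CPM per kilobase of its longest coding transcript in GENCODE M21, against 6.98 for Pcdhgc4 and 6.10 for Pcdhac2. Pcdhgc3 was therefore ahead by far also on the scale that allows a comparison between genes.

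Among the alternate isoforms, levels were even in the gamma cluster and uneven in the alpha and beta clusters. The highest gamma A isoform, Pcdhga3 (28.8 CPM), stood 2.76-fold above the lowest, Pcdhga8 (10.4 CPM), and was followed by Pcdhga2 (21.9 CPM) and Pcdhga7 (21.0 CPM). The gamma B isoforms spanned 3.29-fold, from Pcdhgb8 (6.34 CPM) to Pcdhgb6 (20.9 CPM), with Pcdhgb2 (16.8 CPM) and Pcdhgb7 (15.3 CPM) next to the top. In the alpha cluster Pcdha3 (13.2 CPM), Pcdha2 (13.1 CPM) and Pcdha4 (12.5 CPM) led, and Pcdha8 (1.46 CPM) was lowest, 9.07-fold below Pcdha3. Levels dipped in the middle of the alpha cluster, at Pcdha6, Pcdha7 and Pcdha8, and were higher on both sides of it, as the plot of isoform levels along each cluster shows. In the beta cluster Pcdhb22 (33.4 CPM), Pcdhb20 (25.8 CPM) and Pcdhb17 (25.3 CPM) led, all in the part of the cluster that faces the gamma genes, and Pcdhb1 at the opposite end was lowest (0.41 CPM). Per kilobase of GENCODE M21 transcript, the median was 1.5 CPM for 11 alpha alternate isoforms, 2.45 for beta, 4.01 for gamma A and 2.99 for gamma B. The order within the beta cluster depended on the annotated length, since Pcdhb20 (7.25 CPM per kilobase) came first with the GENCODE M21 lengths and Pcdhb22 (10.9) with the RefSeq lengths.

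**Figure D1:**
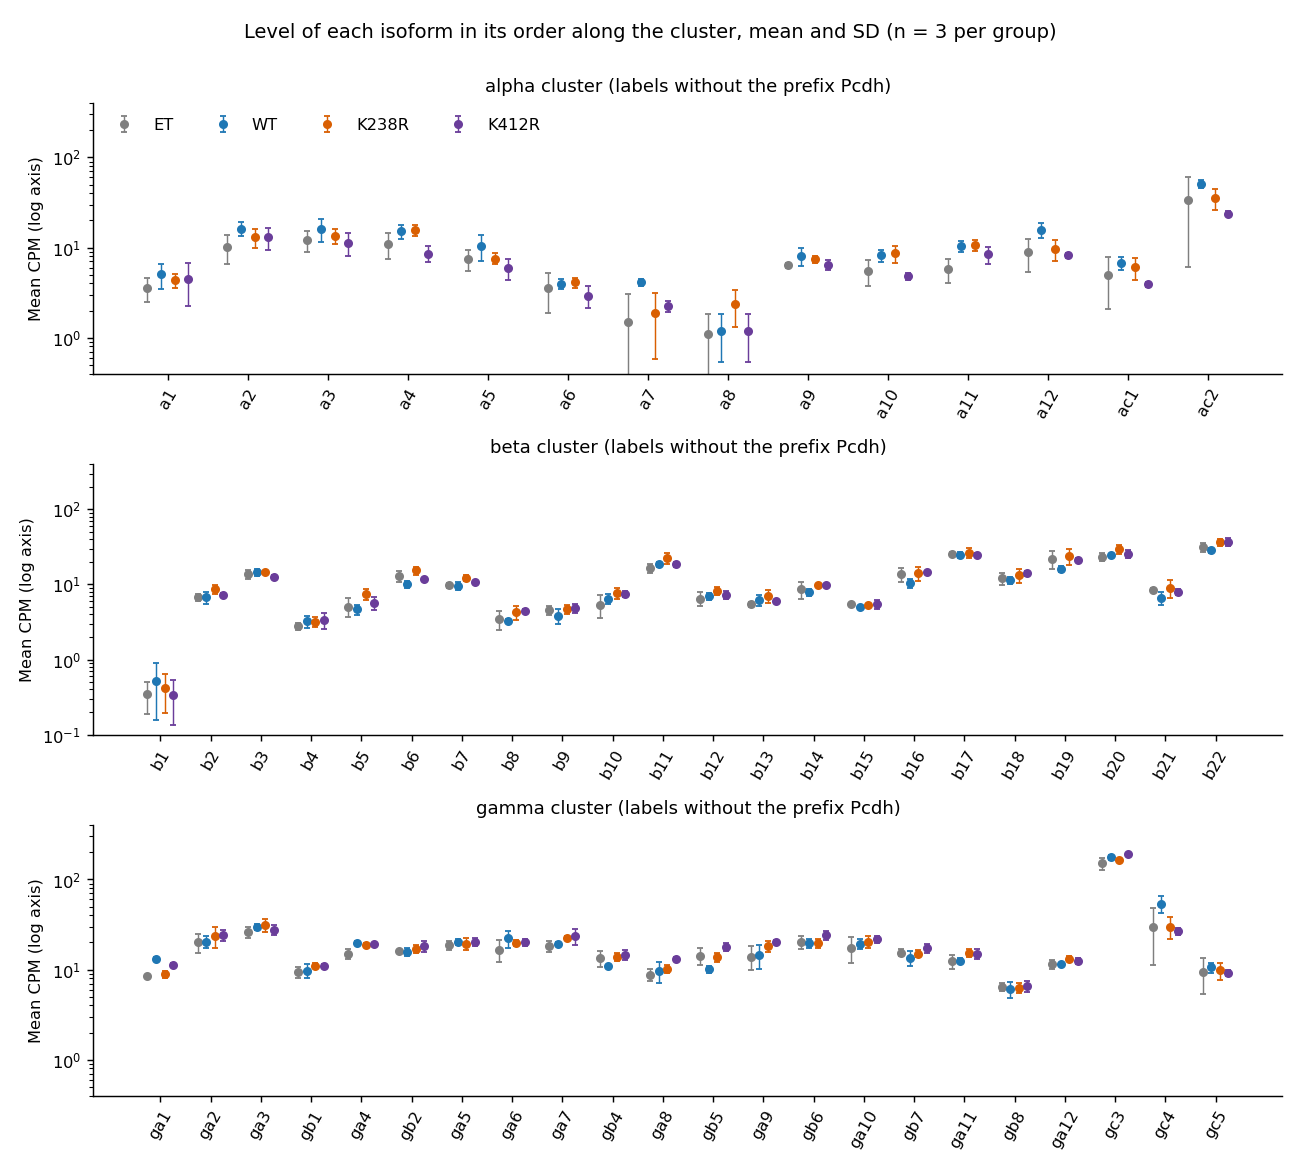
Mean CPM on a log axis (points, with SD bars over 3 libraries) of each clustered protocadherin gene in ET, WT, the libraries labelled K238R and K412R, ordered along each cluster by RefSeq's gene table. Pcdhgc3 stands highest at about 171 CPM over all libraries, Pcdhb1 lowest at 0.41 CPM, and the lower SD bars of Pcdha7 and Pcdha8 in ET run off the axis.

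The order of the isoforms was similar between tumours, least so in the gamma cluster. Spearman's rho between the levels of the 58 genes in 2 libraries had a median of 0.94 over the 66 pairs of libraries (0.84 to 0.98). The medians were 0.92 in the alpha (0.84 to 0.97), 0.97 in the beta (0.92 to 0.99) and 0.87 in the gamma cluster (0.68 to 0.94). These values describe genes and not replicates, and a shared part of them comes from transcript length and the counting. Expressed as an effective number of equally used isoforms (the exponential of the Shannon entropy), the beta cluster used 16.8 to 17.5 of its 22 genes in a library, the gamma cluster 13.1 to 14.6 of 22 and the alpha cluster 8.53 to 12.0 of 14. The alpha value was 9.94 ± 0.21 in WT, 10.2 ± 1.73 in ET, 10.9 ± 0.36 in K412R and 10.7 ± 0.77 in the libraries labelled K238R (SD, n = 3 each). It was lowest in ET replicate 2, where Pcdhac2 took a large share.

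The spread between libraries differed among the subgroups. Over all 12 libraries the coefficient of variation of a gene's CPM had a median of 13.6% in gamma B, 15.9% in beta and 16.6% in gamma A, against 30.5% in the alpha alternate isoforms and 39.8% for the C-type alpha genes. Counting alone would give medians of 6.33%, 8.11%, 5.44%, 8.69% and 7.07% in the same order. Pcdhb15 was the steadiest member at 4.83 to 6.24 CPM, with a coefficient of variation (7.45%) below its counting error (10.3%). Apart from weakly expressed Pcdha8, Pcdha7 and Pcdhb1, the largest coefficients were those of Pcdhac2 (44.9%) and Pcdhgc4 (43.1%).

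How well a read can be assigned also differs between the clusters. The alpha isoforms share their later exons, as the gamma isoforms do among themselves, and these exons made up 53.3% to 54.9% of the alpha alternate transcripts and 41.7% to 45.9% of the gamma transcripts of GENCODE M21. Of the 31-base stretches of a transcript, a median of 37.1% in alpha alternate, 53.8% in gamma A, 43.3% in gamma B and 88.2% in beta occurred in no other member. The smallest shares of the annotated members were those of Pcdha7 (29.8%) and Pcdha8 (32.7%), which lie in the dip of the alpha cluster. Pcdha6, also in the dip, had 37.7%. The part of read assignment in the dip was not tested. Salmon divides the reads from shared stretches by a model, so the split between isoforms of the alpha or of the gamma cluster is less certain than the sum of the cluster or than the values of beta genes. Gene models that join alpha and gamma exons (Gm37013, Gm38666 and Gm38667) took 4 to 57 counts in a library.

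Alpha transcripts were more abundant in WT than in K412R, and beta transcripts less abundant. Summed over the 12 alternate alpha isoforms, CPM was 93.7, 119 and 130 in WT, 74.5, 97.8 and 58.2 in ET, 68.7, 81.8 and 81.3 in K412R and 90.1, 111 and 93.9 in the libraries labelled K238R. All 3 WT libraries lay above all 3 K412R libraries, and ET replicate 2 was within the range of WT. The beta sum was 214, 241 and 236 CPM in WT, 269, 227 and 234 in ET, 273, 252 and 257 in K412R and 303, 246 and 302 in the libraries labelled K238R. In CPM, WT lay below the libraries labelled K238R and below K412R without overlap, at 231 ± 14.4 CPM against 284 ± 32.4 and 261 ± 10.7 CPM, and overlapped ET (243 ± 22.3 CPM, SD, n = 3 each). The separation from K412R depended on the scaling. With the TMM scaling factors of the edgeR fit (0.9585 in WT replicate 3, 1.045 in K412R replicate 3), WT and K412R overlapped.

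The sums of the gamma subgroups differed less. Gamma A reached 213 ± 11.1 CPM in WT, 187 ± 29.2 in ET, 229 ± 13.1 in K412R and 222 ± 19.5 in the libraries labelled K238R, with overlap in CPM between all pairs of groups compared. With TMM factors (0.970 in K412R replicate 2, 1.01 in ET replicate 2), K412R lay above ET without overlap. Gamma B was lowest in WT (79.9 to 92.8 CPM) and highest in K412R (103 to 116 CPM), which lay above WT and above ET (89.1 to 101 CPM) without overlap. The sum of the 3 C-type gamma genes, mostly Pcdhgc3, ran from 219 to 267 CPM in WT and from 188 to 211 CPM in the libraries labelled K238R, again without overlap.

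**Figure D2:**
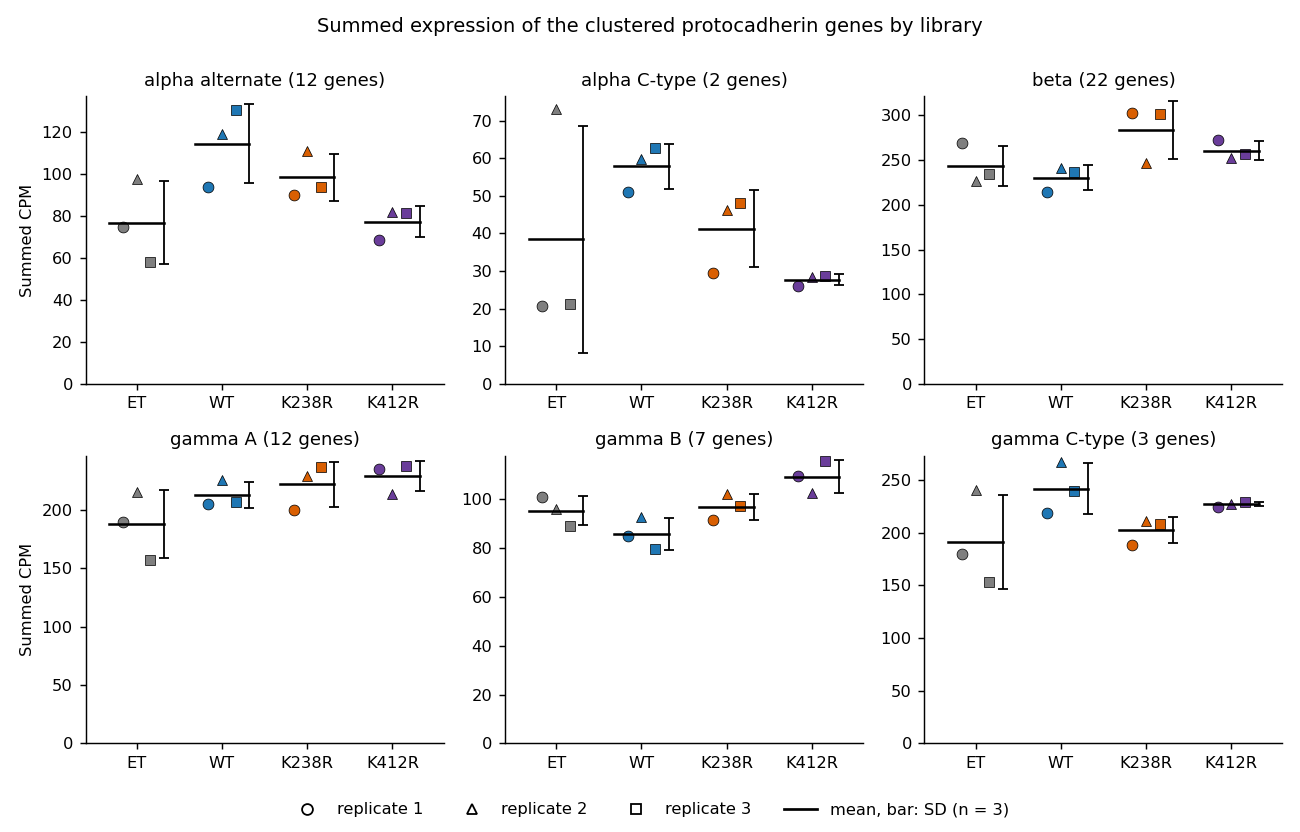
Summed CPM of each subgroup of clustered protocadherin genes in the 12 libraries (symbols give the replicate, lines the group mean, bars the SD over 3 libraries). The alpha sums of WT lie above those of K412R. On this CPM scale the beta sums of WT lie below those of K412R and the libraries labelled K238R. ET replicate 2 (triangle) is the highest of all libraries for the C-type alpha genes at 73.2 CPM.

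Ratios within a library do not depend on how libraries are scaled, and the ratio of alpha to beta placed WT above K412R, as the alpha sums did. The alpha cluster's summed CPM was 0.68, 0.74 and 0.82 times that of the beta cluster in WT, 0.36, 0.75 and 0.34 times in ET, 0.35, 0.44 and 0.43 times in K412R and 0.40, 0.64 and 0.47 times in the libraries labelled K238R. WT lay above K412R and also above the libraries labelled K238R, which overlapped WT in the alpha sum itself. ET replicate 2 fell among the WT values. The ratio of gamma A to gamma B was 2.41, 2.43 and 2.59 in WT, 1.88, 2.24 and 1.76 in ET, 2.15, 2.08 and 2.05 in K412R and 2.19, 2.24 and 2.43 in the libraries labelled K238R. WT was above ET and K412R without overlap, this time with ET replicate 2 included.

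Tested gene by gene, WT and ET did not differ at the adjusted threshold in any clustered protocadherin. With edgeR's quasi-likelihood test and Benjamini-Hochberg adjustment over 18405 genes, 0 of 58 passed an adjusted p under 0.05 (0.0489% of all genes tested did). DESeq2 called 4, namely Pcdhga1, Pcdha11, Pcdhga4 and Pcdha12, all higher in WT, where it called 10.3% of all genes. At an unadjusted p under 0.05, edgeR gave 10 of 58 (17.2%), fewer than the 29.1% of all genes tested. The 9 higher in WT were Pcdhga1, Pcdhga4 and Pcdhga6 of gamma A, Pcdha2, Pcdha10, Pcdha11 and Pcdha12 of the alternate alpha isoforms and the C-type genes Pcdhgc3 and Pcdhgc4, and Pcdhgb5 was lower. By the study's criterion of 2-fold and an unadjusted p under 0.05, 0 of 58 differed (6.02% of all genes). The 3 libraries of WT lay above all 3 of ET in 6 members (10.3%, against 9.41% of all genes) and below them in 5 members (8.62%, against 11.4%), so neither share stood far from that of all genes.

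The direction of the fold changes between WT and ET went with the subgroup. All 12 alternate alpha isoforms had a positive log2 fold change, with a median of 0.54, as had both C-type alpha genes (median 0.57), all 3 C-type gamma genes (0.25) and all 12 gamma A isoforms (0.16). Beta was balanced, with 11 positive and 11 negative values and a median of -0.02, and 6 of 7 gamma B isoforms were negative (median -0.07). Over all genes tested, 49.2% were positive and the median was -0.01. The isoforms of a cluster share exons and enhancers, so these are not independent counts.

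Pcdhga1, the gamma isoform nearest to the beta cluster, had the smallest p of the family in this comparison. Its level was 13.3, 12.7 and 13.6 CPM in WT, 8.87, 8.37 and 8.39 CPM in ET, 10.9, 11 and 12 CPM in K412R and 8.36, 8.67 and 9.88 CPM in the libraries labelled K238R. WT was highest and K412R in between, neither overlapping another group, and ET and the libraries labelled K238R overlapped each other. ET replicate 2 was at the level of the other ET libraries for this gene. Between WT and ET the log2 fold change was 0.65 (standard error 0.11, adjusted p = 0.0797), that of the libraries labelled K238R against WT -0.60 (standard error 0.11, adjusted p = 0.0660) and that of K412R against WT -0.25 (standard error 0.11, adjusted p = 0.221). The call in WT against ET was made by DESeq2 (adjusted p = 0.000661), without ET replicate 2 (0.00796) and without WT replicate 1 (0.0341), and over all alternatives the adjusted p ran up to 0.359.

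Pcdhga4, another gamma A isoform, came next and showed another order of groups. It stood at 20.7, 19.3 and 19.5 CPM in WT, 15.8, 16.6 and 12.8 CPM in ET, 19.3, 19.6 and 19.1 CPM in K412R and 17.8, 19.1 and 19.4 CPM in the libraries labelled K238R. ET was below each of the other groups without overlap, and those overlapped each other. Between WT and ET the log2 fold change was 0.42 (standard error 0.11, adjusted p = 0.102). Pcdha11 was at 6.94, 6.43 and 3.78 CPM in ET and at 8.77, 11.4 and 10.8 CPM in WT, and it too was higher than ET in the other groups (8.95, 11.4 and 11.6 CPM in the libraries labelled K238R, 7.08, 10.5 and 7.63 CPM in K412R). Its log2 fold change between WT and ET was 0.89 (standard error 0.24, adjusted p = 0.104). ET was the low group for both genes, although with edgeR neither passed the adjusted threshold in any comparison with ET.

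ET replicate 2 carried much of the spread within ET, above all for the C-type isoforms. Pcdhac2 stood at 45.6, 52.2 and 55.5 CPM in WT, 17.8, 65.0 and 17.6 CPM in ET, 22.3, 24.3 and 24.8 CPM in K412R and 25.2, 38.4 and 42.1 CPM in the libraries labelled K238R. The highest value of all 12 libraries was that of ET replicate 2, the lowest values were those of the other ET libraries, and WT was above K412R and the libraries labelled K238R without overlap. Between WT and ET the log2 fold change was 0.65 (standard error 0.41, adjusted p = 0.295) with this library and 1.57 (standard error 0.19, adjusted p = 0.00195) without it.

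Pcdhgc4 behaved alike. Its level was 41.5, 64.3 and 55.7 CPM in WT, 22.7, 50.6 and 16 CPM in ET, 24.0, 28.3 and 28.2 CPM in K412R and 22.2, 38.4 and 29.0 CPM in the libraries labelled K238R. WT was above K412R and the libraries labelled K238R without overlap and overlapped ET through ET replicate 2 alone. Between WT and ET the log2 fold change was 0.89 (standard error 0.35, adjusted p = 0.134) with this library and 1.52 (standard error 0.26, adjusted p = 0.00506) without it. Pcdhac1, the weaker C-type alpha gene, stood at 3.01, 8.20 and 3.61 CPM in ET and at 5.51, 7.64 and 7.19 CPM in WT, with a log2 fold change of 0.49 (standard error 0.34) with and 1.06 (standard error 0.27, adjusted p = 0.0157) without ET replicate 2.

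The remaining C-type gamma genes varied less. Pcdhgc3 was at 168, 191 and 174 CPM in WT, 150, 176 and 130 CPM in ET, 192, 190 and 191 CPM in K412R and 159, 162 and 168 CPM in the libraries labelled K238R. K412R was the highest group, ET the most scattered, and ET and WT overlapped through ET replicate 2. Between WT and ET the log2 fold change was 0.25 (standard error 0.10, adjusted p = 0.142). Pcdhgc5 was at 10.6 ± 1.4 CPM in WT, 9.38 ± 4.0 in ET, 9.19 ± 0.78 in K412R and 9.82 ± 2.14 in the libraries labelled K238R (SD, n = 3 each), with ET replicate 2 highest of all at 14.0 CPM.

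Without ET replicate 2, 14 of the 58 genes (24.1%) passed the adjusted threshold between WT and ET, 12 of them higher in WT. So did 30.8% of all genes tested, so the family's share was again no larger than that of all genes. These calls follow the removal of a library singled out by values of the same genes. All 3 C-type gamma genes and both C-type alpha genes were among them, with Pcdha2, Pcdha4, Pcdha11 and Pcdha12 of the alternate alpha isoforms and Pcdhga1, Pcdhga4 and Pcdhga6 of gamma A. Pcdhgb5 and Pcdhb19 were lower. The median log2 fold change became 0.74 for the alternate alpha isoforms, 1.32 for the C-type alpha genes, 0.61 for the C-type gamma genes and 0.28 for gamma A, and stayed near 0 for beta (0.04) and gamma B (-0.03).

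**Figure D3:**
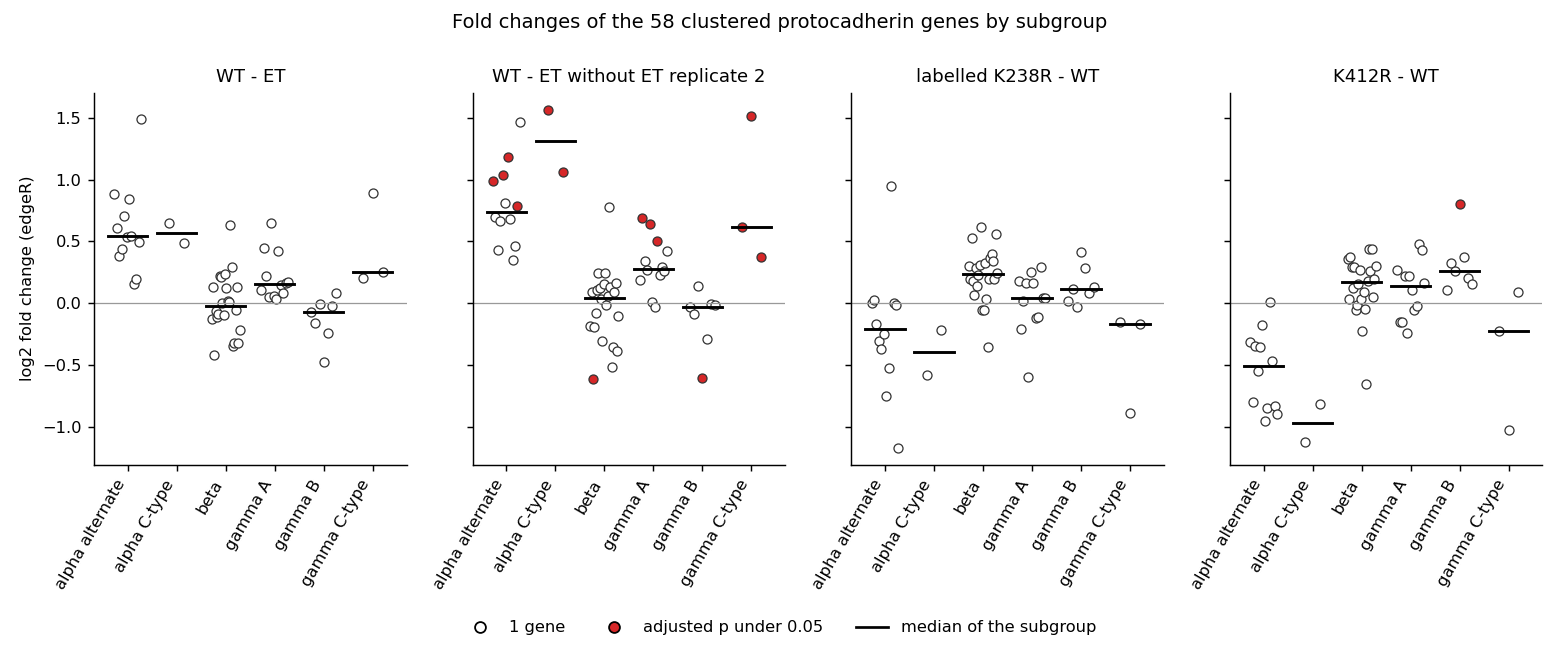
Log2 fold changes from edgeR of the 58 genes (1 point each, red where the adjusted p is under 0.05, line at the subgroup median) for WT against ET with and without ET replicate 2, for the libraries labelled K238R against WT and for K412R against WT. The alpha isoforms have positive values in WT against ET (median 0.54 for the alternate isoforms) and mostly negative values in K412R against WT (median -0.51), while most beta values lie slightly above 0 against WT in K412R and the libraries labelled K238R.

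Between the libraries labelled K238R, whose Dnmt3l level was that of ET, and WT the test found a difference in no clustered protocadherin at the adjusted threshold (0 of 58 with edgeR, 0.223% of all genes), and DESeq2 called 2, Pcdhga1 and Pcdhb6. At an unadjusted p under 0.05 there were 8 of 58 (13.8%, against 17.5% of all genes). Pcdhb5, Pcdhb6, Pcdhb19, Pcdhb22 and Pcdhgb5 were the higher ones and Pcdhga1, Pcdha12 and Pcdhgc4 the lower ones. None met the 2-fold criterion (5.23% of all genes). In 12 members (20.7%) the 3 libraries labelled K238R lay above all 3 WT libraries, against 12.7% of all genes, and 7 of these were beta genes. In 5 members (8.62%) they lay below, against 11.3% of all genes, namely Pcdhgc4, Pcdhac2, Pcdha7, Pcdha12 and Pcdhga1. Of the beta genes 19 of 22 had a positive log2 fold change, with a median of 0.23, while 9 of 12 alternate alpha isoforms were negative (median -0.21). The median of all genes tested was 0.00.

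Pcdhb6 had the smallest p among the beta genes. It was at 9.67, 11.3 and 9.30 CPM in WT, 15.4, 11.5 and 11.7 CPM in ET, 11.6, 12.2 and 11.2 CPM in K412R and 14.9, 13.8 and 17.4 CPM in the libraries labelled K238R. WT was lowest in CPM, below ET and the libraries labelled K238R without overlap. The gap to ET was narrow (11.3 CPM in WT replicate 2, 11.5 CPM in ET replicate 2). With the TMM factors of these libraries (0.984 and 1.01), WT and ET overlapped. The log2 fold change of the libraries labelled K238R against WT was 0.56 (standard error 0.15, adjusted p = 0.109). Pcdha12, the last alternate alpha isoform before the C-type genes, stood at 13.6, 14.4 and 18.9 CPM in WT, 8.53, 12.7 and 5.62 CPM in ET, 7.69, 8.14 and 8.76 CPM in K412R and 7.39, 12.3 and 9.01 CPM in the libraries labelled K238R, so that WT was above every other group without overlap. Its log2 fold change was -0.75 (standard error 0.27, adjusted p = 0.200) in the libraries labelled K238R against WT. Without ET replicate 2, which enters this comparison only through the shared estimate of the spread, 3 members passed (Pcdhga1 and Pcdhgc4 lower, Pcdhb6 higher), against 4.32% of all genes.

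K412R differed from WT in 1 of 58 clustered protocadherins at the adjusted threshold, a share of 1.72% against 2.04% of all genes tested. The gene was Pcdhgb5, an alternate gamma B isoform. It stood at 9.28, 11.1 and 9.76 CPM in WT, 17.4, 11.6 and 13.8 CPM in ET, 17.5, 16.1 and 19.6 CPM in K412R and 12.0, 14.6 and 14.7 CPM in the libraries labelled K238R. WT was below all other libraries and K412R was above both WT and the libraries labelled K238R. Pcdhgb5 rose in K412R by a log2 fold change of 0.80 (standard error 0.16, adjusted p = 0.0329). Leaving out 1 library ended the call in 6 of 12 fits, those without WT replicate 2 (adjusted p = 0.0840), WT replicate 3 (0.145), replicate 3 of the libraries labelled K238R (0.0509) or K412R replicates 1, 2 or 3 (0.123, 0.0637 and 0.131), and the log2 fold change stayed between 0.73 and 0.88. Over all alternatives the adjusted p lay between 0.000643 and 0.145.

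At an unadjusted p under 0.05, 12 of 58 genes (20.7%) differed between K412R and WT, against 22.8% of all genes tested. The 7 lower in K412R were all alpha or C-type genes, Pcdha4, Pcdha5, Pcdha10, Pcdha12, Pcdhac1, Pcdhac2 and Pcdhgc4, and the 5 higher ones were Pcdhgb4, Pcdhgb5, Pcdhgb7, Pcdhga8 and Pcdhb22. By the 2-fold criterion 2 of 58 (3.45%) differed, Pcdhac2 and Pcdhgc4, against 5.02% of all genes. The K412R libraries lay below all WT libraries in 9 members (15.5%, against 16.6% of all genes) and above them in 11 members (19.0%, against 14.4%), 7 of which were beta genes. Of the alternate alpha isoforms 11 of 12 had a negative log2 fold change (median -0.51) and the C-type alpha genes had a median of -0.97, whereas 17 of 22 beta genes (median 0.17) and all 7 gamma B isoforms (0.26) were positive. The median of all genes tested was 0.01.

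Pcdhac2 was lower in K412R than in WT by a log2 fold change of -1.13 (standard error 0.41, adjusted p = 0.144) and Pcdhgc4 by -1.03 (standard error 0.35, adjusted p = 0.121), and neither passed the adjusted threshold in the fit of all groups. A fit of these 2 groups alone, which leaves the scattered ET libraries out of the estimate of the spread, called 8 members (10.6% of all genes), and DESeq2 called 7 (9.10% of all genes). Pcdhac2, Pcdhgc4, Pcdha4, Pcdha10, Pcdha12 and Pcdhgb5 were called by both. Without ET replicate 2, 5 members passed (8.62%), Pcdhac2, Pcdhgc4, Pcdha4 and Pcdha12 lower and Pcdhgb5 higher, while 8.13% of all genes did. Pcdhb22, the strongest beta gene, was at 26.4, 31.1 and 28.1 CPM in WT and at 41.4, 32.4 and 37.5 CPM in K412R. Its log2 fold change was 0.36 (standard error 0.13, adjusted p = 0.136), with no overlap between the groups.

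Log2 fold changes were small for some of the strongest beta, gamma A and gamma B isoforms. Pcdhb17 had log2 fold changes between -0.05 and 0.04 in all 5 comparisons, and Pcdhga3 between -0.15 and 0.24. For Pcdhgb6 they lay between -0.04 and 0.26 and for Pcdhb20 between 0.03 and 0.33. None of these 4 genes passed the adjusted threshold in any comparison, though Pcdhb20 passed an unadjusted p under 0.05 in the libraries labelled K238R against ET. Larger values occurred among the strong alternate alpha isoforms in single comparisons. With DESeq2 the log2 fold change was 0.71 for Pcdha2 in WT against ET and -0.83 for Pcdha4 in K412R against WT. The strongest beta gene, Pcdhb22, had 0.36 with DESeq2 in K412R against WT. These are picked comparisons from another tool and are not set against the edgeR ranges above.

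Against ET, neither K412R nor the libraries labelled K238R had a clustered protocadherin at the adjusted threshold with edgeR (0 of 58 each, and 0% of all genes in both comparisons), and DESeq2 called none. At an unadjusted p under 0.05 the libraries labelled K238R differed from ET in 5 members (8.62%, against 5.61% of all genes), Pcdha10, Pcdha11, Pcdhb11, Pcdhb20 and Pcdhga4, all higher. K412R differed from ET in 7 members (12.1%, against 7.91% of all genes), Pcdhga1, Pcdhga4, Pcdhga7, Pcdhga8, Pcdhga9, Pcdha11 and Pcdhgc3, again all higher. None of the 58 met the 2-fold criterion in either comparison, in which 0.951% and 1.57% of all genes did. The log2 fold changes against ET were positive for 52 of 58 members in the libraries labelled K238R (median 0.21) and for 42 of 58 in K412R (median 0.16), while the median of all genes tested was -0.02 in each. All 12 gamma A isoforms were positive in both comparisons, with medians of 0.23 and 0.31, and beta gave 21 and 16 of 22 positive values, with medians of 0.22 and 0.16. The alternate alpha isoforms were positive in 12 of 12 cases in the libraries labelled K238R (median 0.31) and in 6 of 12 in K412R (median -0.04). Without ET replicate 2 these medians became 0.51 (12 of 12 positive) and 0.19 (9 of 12), so that the sign turned in K412R. The C-type alpha genes went from 0.17 to 0.92 in the libraries labelled K238R and from -0.40 to 0.36 in K412R, the C-type gamma genes from 0.05 to 0.46 and from -0.02 to 0.48, and gamma A from 0.23 to 0.36 and from 0.31 to 0.47. Gamma B went from -0.04 to 0.03 in the libraries labelled K238R and from 0.17 to 0.21 in K412R. Beta went from 0.22 to 0.24 (18 of 22 positive) in the libraries labelled K238R and from 0.16 to 0.13 (17 of 22) in K412R. Over all 58 members the medians were 0.31 and 0.21 without that library. In the libraries labelled K238R the smallest adjusted p was 0.806, which several members shared, and the smallest unadjusted p were those of Pcdha11 (log2 fold change 0.89, standard error 0.24), Pcdhb11 (0.43, standard error 0.15) and Pcdhga4 (0.30, standard error 0.11). In K412R Pcdhga1 (0.40, standard error 0.11) had an adjusted p of 0.424, Pcdhga4 (0.37, standard error 0.11) of 0.437 and Pcdhgc3 (0.34, standard error 0.10) of 0.442. The comparisons with ET and with WT share libraries, so their values are given side by side and not as support for each other.

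Neuron markers, like the alpha sum, were lower in K412R than in WT. The summed CPM of the 20 neuron markers was 5370, 6811 and 6992 in WT, 5332, 5647 and 4836 in ET, 4133, 4710 and 4498 in K412R and 5628, 6173 and 6898 in the libraries labelled K238R. K412R was lowest, below every other group without overlap, and WT overlapped ET. All 20 had a negative log2 fold change in K412R against WT (median -0.64), 13 at an unadjusted p under 0.05 (22.8% of all genes in either direction), and Elavl3, an RNA-binding protein of neurons, fell by 0.70 on the log2 scale (standard error 0.12, adjusted p = 0.0188). In WT against ET 12 of 20 were higher at an unadjusted p under 0.05 and the neurofilament gene Nefm was lower (median 0.51), against 29.1% of all genes in either direction. In the libraries labelled K238R against WT the median was -0.28.

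Set against the neuron markers of the same library, the alpha cluster's difference between WT and K412R was smaller and the beta and gamma differences were larger. Per 100 CPM of neuron markers, the alpha cluster had 2.70, 2.63 and 2.76 CPM in WT, 1.79, 3.03 and 1.64 CPM in ET, 2.29, 2.34 and 2.44 CPM in K412R and 2.13, 2.55 and 2.06 CPM in the libraries labelled K238R. WT lay above K412R, as in the alpha sums, and here also above the libraries labelled K238R. The beta cluster had 3.64 ± 0.32 CPM in WT and 5.89 ± 0.64 CPM in K412R on the same scale, and the gamma cluster 8.53 ± 0.98 and 12.8 ± 1.13 CPM (SD, n = 3 each). How much of the differences in protocadherins came from the amount of neural tissue was not tested.

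The serotonergic markers were highest in the same ET library as Pcdhac2. Summed over 7 genes they reached 457, 512 and 407 CPM in WT, 322, 660 and 277 CPM in ET, 350, 353 and 426 CPM in K412R and 335, 471 and 491 CPM in the libraries labelled K238R. Slc6a4, the serotonin transporter, had 2027, 2765 and 1951 counts in WT, 988, 3048 and 813 in ET, 1070, 1372 and 1144 in K412R and 1157, 2112 and 1713 in the libraries labelled K238R. ET replicate 2 was highest of all libraries in both, and WT lay above K412R in Slc6a4 without overlap (log2 fold change of K412R against WT -0.93, standard error 0.43, adjusted p = 0.226). Lmx1b, a transcription factor of these neurons, did not show that order (log2 fold change 0.47, standard error 0.16, adjusted p = 0.114). Over the 7 genes the median was 0.21 in WT against ET, 0.06 in the libraries labelled K238R against WT and -0.17 in K412R against WT. ET replicate 2 also stood out in other lists. Endothelium markers were highest of all libraries there (280 CPM). Within ET it was highest for epithelium markers (698 CPM against 394 and 402) and olfactory neuron markers (605 CPM against 386 and 305). It was not the highest ET library for striated muscle or pluripotency markers. The part of serotonergic neurons in the Pcdhac2 values was not tested.

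**Figure D4:**
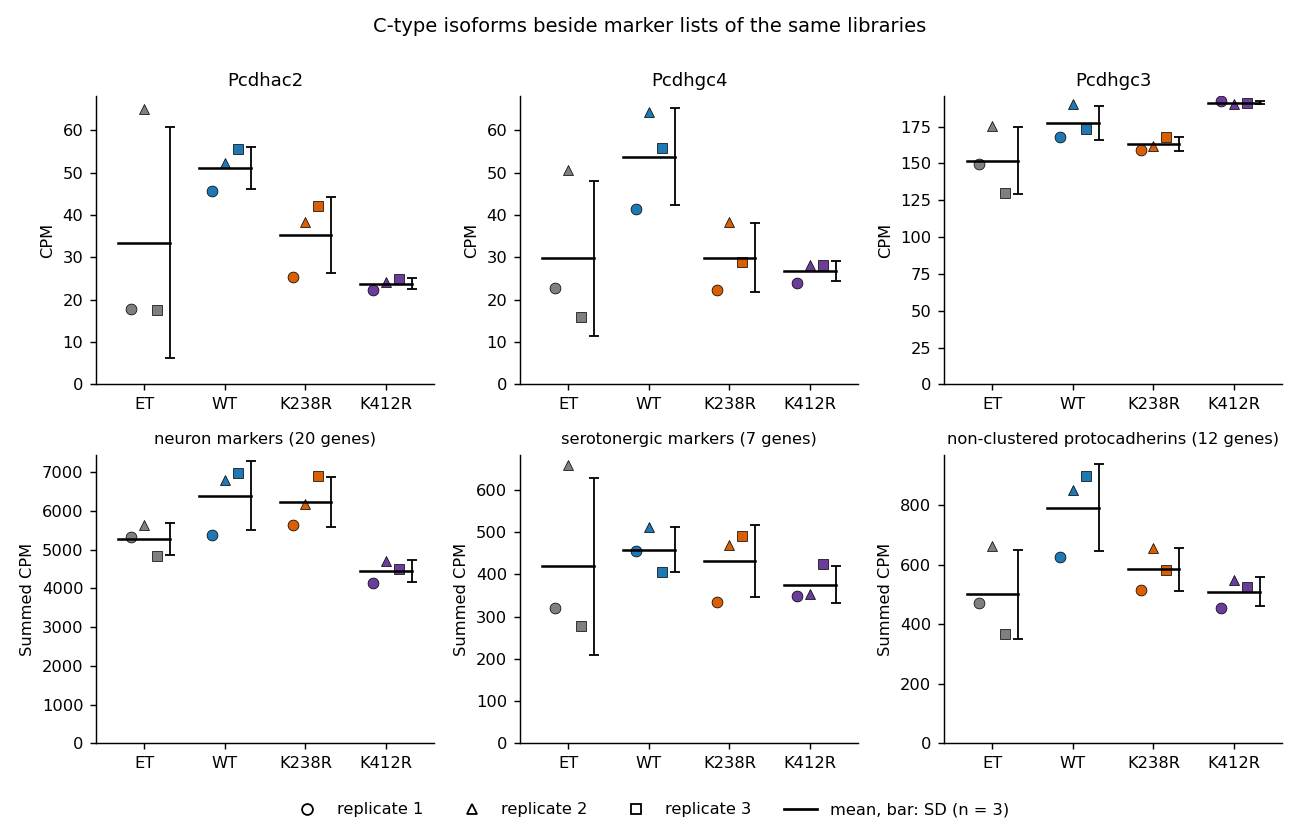
CPM of Pcdhac2, Pcdhgc4 and Pcdhgc3 and summed CPM of neuron markers, serotonergic markers and non-clustered protocadherins in the 12 libraries (symbols give the replicate, lines the group mean, bars the SD over 3 libraries). ET replicate 2 (triangle) is highest for Pcdhac2 at 65.0 CPM and for the serotonergic markers at 660 CPM, and the K412R libraries are the lowest for the neuron markers.

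The 12 non-clustered protocadherins, adhesion molecules encoded elsewhere in the genome without variable exon arrays (Pcdh1 and Pcdh12 lie near the clusters), had their highest mean sum in WT. They summed to 792 ± 147 CPM in WT, 501 ± 150 in ET, 509 ± 48.6 in K412R and 585 ± 70.9 in the libraries labelled K238R (SD, n = 3 each). WT replicate 1 (625 CPM) lay below ET replicate 2 (664 CPM) and replicate 2 of the libraries labelled K238R (656 CPM), so only K412R did not overlap WT. Against ET, 11 of 12 were higher in WT (median log2 fold change 0.61), 8 higher and 1 (Pcdh8) lower at an unadjusted p under 0.05 (29.1% of all genes) and 0 at the adjusted threshold of edgeR. Their median was -0.53 in the libraries labelled K238R against WT (Pcdh8 higher and Pcdh7, Pcdh9, Pcdh10 and Pcdh11x lower at an unadjusted p under 0.05, against 17.5% of all genes) and -0.49 in K412R against WT (6 lower, against 22.8% of all genes). Pcdh9, the most abundant, had 2551, 3576 and 4097 counts in WT, 1740, 1983 and 1238 in ET, 1748, 2163 and 1655 in K412R and 1989, 2693 and 2179 in the libraries labelled K238R. Its WT libraries lay above those of ET and K412R without overlap, with a log2 fold change of 1.05 against ET (standard error 0.23, adjusted p = 0.0972). Pcdh10 gave 0.79 (standard error 0.26, adjusted p = 0.112).

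Genes flanking the clusters showed no common shift. Of the 22 neighbours on the same chromosome arm that were tested, Pcdh1, Pcdh12, Rell2, Rnf14 and Ndfip1 were higher in WT than in ET at an unadjusted p under 0.05 and Slc35a4, Dnd1, Zmat2 and Taf7 lower (29.1% of all genes passed in either direction), and with edgeR 0 passed the adjusted threshold in any of the 5 comparisons. Their median log2 fold change was -0.07 in WT against ET and in the libraries labelled K238R against WT, and -0.00 in K412R against WT. The most abundant were Ndfip1 and Rnf14, which belong to ubiquitin pathways. Rnf14 had a log2 fold change of 0.54 (standard error 0.15, adjusted p = 0.105) in WT against ET and -0.61 (standard error 0.15, adjusted p = 0.0627) in K412R against WT, and Ndfip1 gave 0.40 and -0.31, so these neighbours had the signs of the alpha isoforms.

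The machinery of promoter choice and silencing was mostly lower in WT than in ET by the sign of the fold changes. Of 29 genes, 15 were lower at an unadjusted p under 0.05, which 29.1% of all genes passed in either direction, and Dnmt3l was the only one higher (median log2 fold change -0.33, with 26 of 29 negative). Among the lower ones were the cohesin subunit Rad21 (-0.44, standard error 0.18), the cohesin loader Nipbl (-0.69, standard error 0.21) and Uhrf1, which keeps up DNA methylation (-1.03, standard error 0.31). Compared with WT, Rad21, Nipbl, Wapl, Atf7ip and Rest were higher in K412R at that threshold (22.8% of all genes passed it) and Nipbl, Atf7ip, Rest and Ehmt1 in the libraries labelled K238R (17.5% of all genes), and Dnmt3l, lower in both, was again the only one past the adjusted threshold. Dnmt3b, the methyltransferase of the clusters, had 619, 120 and 76 counts in WT, 439, 482 and 1217 in ET, 409, 454 and 459 in K412R and 475, 261 and 267 in the libraries labelled K238R. WT replicates 2 and 3 were lowest, WT replicate 1 was not, and the log2 fold change of -1.41 (standard error 0.64, adjusted p = 0.172) did not pass. For Smchd1 the log2 fold change was -0.43 (standard error 0.18, adjusted p = 0.148). Ctcf stood at -0.35 (standard error 0.14, adjusted p = 0.135), so neither passed.

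Among 23 protocadherin partners and processing factors, 5 were higher (Abi2, Cyfip2, Fyn, Nlgn1 and Nlgn2) and 2 lower (Ptk2 and Wasf2) in WT than in ET at an unadjusted p under 0.05, a share near the 29.1% of all genes. The median log2 fold change was 0.08 in WT against ET, -0.01 in the libraries labelled K238R against WT and 0.04 in K412R against WT. Abi2, a subunit of the WAVE complex that links cadherin-type receptors to actin, was the only called member, lower in K412R than in WT by a log2 fold change of -0.50 (standard error 0.11, adjusted p = 0.0405).

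Other tissues differed between the same libraries and are given as context for the values above. In K412R against WT, the median log2 fold change was -2.67 for 13 striated muscle markers, -0.35 for 8 endothelium markers, -0.55 for the 4 olfactory neuron markers tested, 0.04 for 18 markers of neural progenitors and glia, 0.38 for 11 epithelium markers, 0.10 for 11 markers of cartilage and mesenchyme, 0.09 for 9 markers of blood and macrophages and 0.92 for 10 pluripotency markers. Of these, the mesenchymal transcription factor Prrx1 alone passed the adjusted threshold (log2 fold change -0.78, standard error 0.17, adjusted p = 0.0420). In WT against ET the medians were 1.95, 0.44, 0.74, 0.24, 0.39, -0.03, 0.06 and -1.97 in the same order, and in the libraries labelled K238R against WT -1.84, -0.55, -0.63, 0.13, -0.62, -0.33, -0.34 and 1.0, with 0 called in either. The part of any of these tissues in the protocadherin values was not tested.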

How the data were processed

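Poly(A)-selected RNA of 12 teratomas, 3 per group, was sequenced from both ends after CORALL library preparation. The authors used Fastp for trimming, STAR for mapping and Salmon for counting, and deposited estimated counts per gene symbol without normalization. The submitters' processing notes name GRCm39 and GATK, while the annotation is not given in the sources used here. Estimated counts were whole numbers and were scaled to CPM by the total of all 38986 genes. A single gene, Gm26917, took from 7.47% (replicate 3 of the libraries labelled K238R) to 13.9% (K412R replicate 2) of that total. Its uneven share enters every CPM value and every statement of overlap in CPM. Precision rests on 3 libraries per group.

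Counts were tested with edgeR 4.0.16 (TMM scaling, filterByExpr, robust quasi-likelihood fit, 1 mean per group over 12 libraries, Benjamini-Hochberg over 18405 genes) in R 4.3.3. The study used DESeq2, tried here (1.42.0) beside RLE scaling, no filter, 2 groups alone, a replicate block and each library left out. The edgeR step was tested on simulated data.

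Members and gene lists were chosen with earlier results of these data known. Named were the C-type genes, the 3 highest isoforms of each other subgroup and the called genes or the 3 with the smallest p per comparison, and, in lists described singly, the called or 2 most abundant genes. Other names were chosen after their values were seen. Gene order came from RefSeq (GRCm38.p6) and lengths from GENCODE M21, which holds 57 of the 58 genes. No coordinates are given because the builds differ. A result on single neuron markers is not reported here.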

Additional observations from a re-analysis of the deposited data

How the results depend on the processing

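The number of clustered protocadherins at an adjusted p under 0.05 depended on the tool and on single libraries. Between WT and ET it was 0 with edgeR, 4 with DESeq2 and 2 with the replicate block, and 0 to 14 with each library left out (14 without ET replicate 2, 2 without WT replicate 1). Between the libraries labelled K238R and WT it was 0, 2 with DESeq2, 1 with the replicate block and 0 to 3 with a library left out (3 without ET replicate 2). Between K412R and WT it was 1, 7 with DESeq2, 8 in a fit of the 2 groups alone, 2 with the replicate block and 0 to 5 with a library left out. The 5 were reached without ET replicate 2, 3 without WT replicate 1, 2 without ET replicate 3 and 0 without WT replicates 2 or 3, replicate 3 of the libraries labelled K238R or any K412R library. Between K412R and ET it was 0, and 0 to 1 with a library left out (Pcdhgc3 without ET replicate 2).

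By the 2-fold criterion the numbers with a library left out were 0 to 5 for WT against ET (5 without ET replicate 2, 2 without ET replicate 1 or WT replicate 1), 0 to 1 for the libraries labelled K238R against WT (also 1 in the 2 groups alone), 0 to 4 for K412R against WT (4 without WT replicate 1, 1 without WT replicate 3, 0 without K412R replicate 1) and 0 to 1 for the libraries labelled K238R against ET. Except where fewer samples enter, the cause was not tested.

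Replicate numbers did not pair the libraries: same-numbered libraries of different groups had correlations of their deviations from the group means between -0.36 and 0.32, over 0.1 in 4 of 18 pairs, so the paired fit is only an alternative. RLE scaling and the absence of a filter on low counts left the number called as it was in each comparison, and no scaling moved the median of all genes by more than 0.04 on the log2 scale. The log2 ratio of the summed alpha cluster in WT against ET lay between 0.37 and 0.98 with a library left out or another scaling, and that in K412R against WT between -0.83 and -0.63.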
